A study of Mus musculus with 9 samples.

Results

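The genes of synaptic adhesion and laminar targeting were followed across the cell types of the mouse retina, and all 45 genes of the list were found among the 37725 genes of the single-cell matrix. They were taken by name from a list of such genes, and the list was chosen by a process that had the cell type levels and dKO differences of these data in view, so their levels across cell types are given as a description, with no test. Single cells came from 4 control and 5 dKO mice. All 9 mice were taken to carry RPE65-ERT2-Cre with floxed miR-211 and miR-204 alleles, controls included. The Rpe65 promoter drives this Cre in the retinal pigment epithelium (RPE). The paper, however, describes its controls as mice without the Cre that were given tamoxifen, whereas the control labels name corn oil. Whether the controls carried the Cre is therefore not settled here. The dKO mice (S05 to S09) had received tamoxifen at 75 mg/kg on 5 days from postnatal day 28 and the control mice (S01 to S04) corn oil. Tissue was collected at a labelled time of 6 months, and the retinas of 1 mouse formed 1 sample. The labels give the same animal number to S06 and S07, which were treated as 2 mice.

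The wiring of the retina rests on which axons and dendrites meet in which sublayer of the plexiform layers. Neurexins and receptor phosphatases of the LAR type sit mainly on the presynaptic side and bind neuroligins, LRRTMs and SLITRKs across the cleft. Sidekicks, DSCAMs, contactins and teneurins act as recognition molecules that sort neurites into sublayers or keep branches of one cell apart, and UNC5 proteins are netrin receptors that guide growing axons.

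The matrix counts captured RNA molecules by their unique molecular identifiers (UMIs) for each gene in each cell, with between 15079143 and 66528160 UMIs per mouse. Cells were assigned by marker genes to 12 types that hold 26418 of the 31089 cells, from 15876 rods to 101 starburst amacrine cells. The first barcode of a cell marks its mouse, so no barcode combination could occur in more than 1 mouse. UMIs were summed per mouse within a type and scaled to counts per 1e6 UMIs (CPM), and a mouse entered a type with at least 10 cells. The mice S04, S05 and S07 stood apart, since their median cells held 4775, 4863 and 5412.5 UMIs and those of the other mice 8118 to 10340. Rod markers summed to 18400 CPM in rods and to between 230 and 371 CPM in the other 11 types. That level was limited by the gates, which left out cells of other classes with many rod UMIs, and it holds for this abundant list alone. CPM values are shares of the UMIs of a type, so they show neither the number of its cells nor the RNA per cell. No member was a gating marker. Horizontal markers summed to 2820 CPM in horizontal cells, and RPE markers to 12500 CPM in the RPE, where 7 of 8 did and Best1 was near 0.

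Among the 12 types, the members took the largest share of RNA in bipolar cells and the smallest in the RPE. Their summed level was 51500 ± 2440 CPM (mean ± SD, n = 9 mice) in OFF cone bipolar cells, 48000 ± 2960 CPM (n = 9) in rod bipolar cells and 43800 ± 1750 CPM (n = 9) in ON cone bipolar cells. Amacrine classes followed, at 30800 ± 1290 CPM (GABAergic, n = 9), 29000 ± 2780 CPM (starburst, n = 6) and 27800 ± 996 CPM (glycinergic, n = 8). Ganglion cells, the output neurons, held 23000 ± 1200 CPM (n = 8) and Müller glia 16900 ± 929 CPM (n = 9). Horizontal cells held 11500 ± 639 CPM (n = 7), cones 8160 ± 684 CPM (n = 9), rods 5720 ± 757 CPM (n = 9) and RPE cells 2880 ± 613 CPM (n = 6). These sums count UMIs without regard to gene length, and a few long genes weigh most in them.

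**Figure D1:**
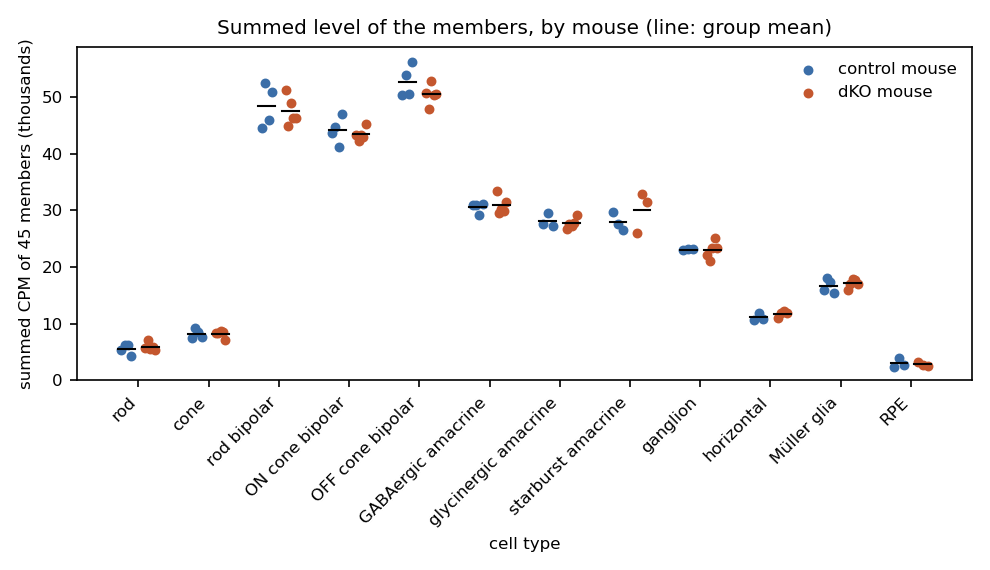
Each point is the summed CPM of the 45 members in 1 mouse (vertical axis) for each of 12 cell types (horizontal axis), with control mice in blue, dKO mice in orange and lines at group means. Bipolar types lie between 41100 and 56100 CPM, and RPE cells between 2330 and 3980 CPM.

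Many members passed a low limit in every type. At a mean of 5 CPM, 44 of 45 members were measured in GABAergic amacrine cells and 42 in ganglion cells. But 31 also passed in rods, 31 in cones and 31 in RPE cells. Microglia, pericytes, endothelium and fibroblasts, gated but not ranked, had 29, 30, 30 and 35. Their summed levels were 1660 ± 359, 1690 ± 168, 2600 ± 3180 and 3640 ± 672 CPM, around the 2880 ± 613 CPM of RPE cells. A count at this limit therefore does not set RPE cells apart. Free RNA was not removed, and its part in these counts was not tested. The highest level fell in OFF cone bipolar cells for 11 members, in rod bipolar cells for 6, in GABAergic amacrine cells for 6, in ganglion cells for 5 and in Müller glia for 5. It fell in glycinergic amacrine cells for 3 members, in horizontal cells for 3, in ON cone bipolar cells for 2, in starburst cells for 2, in rods for 1 and in the RPE for 1. Cones led for 0 members.

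**Figure D2:**
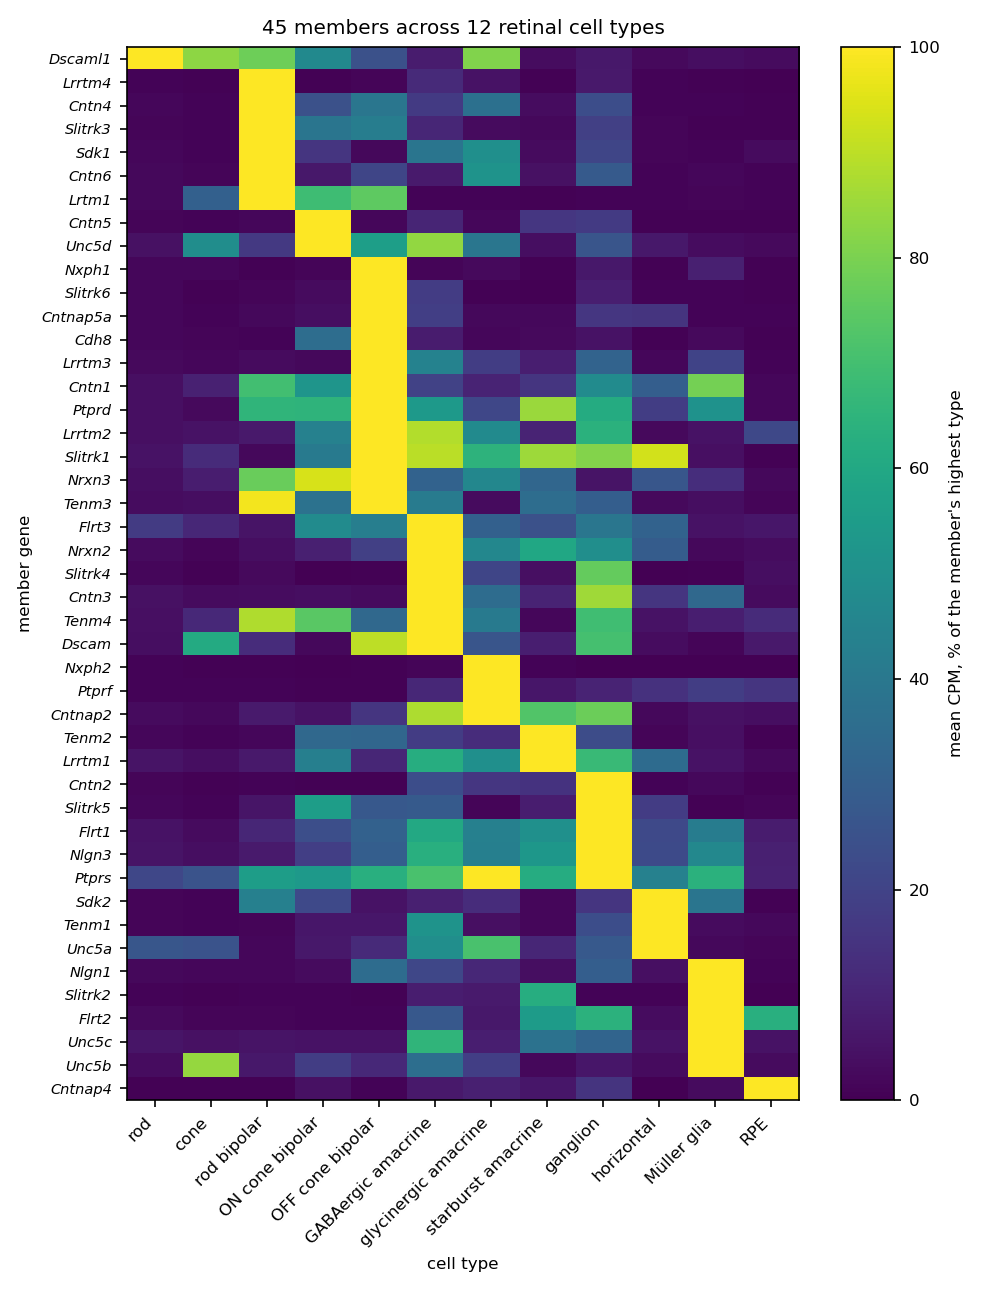
Each row is 1 of 45 members and each column 1 of 12 cell types, and the colour gives the mean CPM as a percent of the level in the member's highest type. Bright cells off the diagonal blocks, as for Ptprs or Slitrk1, mark members spread over many types, while Nxph2, Lrrtm4 and Cntnap4 are bright in 1 type.

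Of the presynaptic receptors, neurexin-3 (Nrxn3) was shared by all bipolar types. It stood at 21000 ± 897 CPM in OFF cone, 19700 ± 1080 CPM in ON cone and 16200 ± 1440 CPM in rod bipolar cells, and the mice of the first 2 overlapped. Nrxn2 was instead highest in GABAergic amacrine cells, from 546 to 665 CPM with a median of 637 CPM over 9 mice, above starburst cells at 370 ± 57.5 CPM. The LAR-type phosphatases also differed from each other. Ptprd was highest in OFF cone bipolar cells at 4740 ± 413 CPM, with starburst cells next at 4020 ± 429 CPM and overlapping. Ptprf marked glycinergic amacrine cells, where 8 mice ranged from 770 to 1090 CPM (median 869), 5.56 times the level of Müller glia. Ptprs had no leading type, since ganglion cells and glycinergic amacrine cells both averaged 418 CPM and the mice of neighbouring types overlapped down to horizontal cells.

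Among their postsynaptic partners, Lrrtm4, a leucine-rich repeat protein that binds neurexins and heparan sulfate proteoglycans, ranged over 9 mice from 6890 to 10500 CPM in rod bipolar cells, with a median of 8210 CPM. That is 8.36 times GABAergic amacrine cells, and no mouse overlapped. Lrrtm3 led in OFF cone bipolar cells at 519 ± 105 CPM, Lrrtm2 led there too at 38.6 ± 10.3 CPM with GABAergic amacrine cells overlapping at 34.2 ± 5.05 CPM, and Lrrtm1 was low throughout, with 41 UMIs behind its highest mean of 13.3 ± 6.25 CPM in starburst cells. Of the neuroligins, the postsynaptic ligands of neurexins, Nlgn1 was highest outside the neurons, at 5720 ± 677 CPM in Müller glia against 2020 ± 245 CPM in OFF cone bipolar cells. Nlgn3 led in ganglion cells at 104 ± 10.1 CPM, 1.59 times GABAergic amacrine cells.

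SLITRKs, which bind the LAR-type phosphatases, were spread over 5 types. Slitrk3 led in rod bipolar cells (139 ± 31 CPM), Slitrk6 in OFF cone bipolar cells (141 ± 29.3 CPM, 5.67 times GABAergic amacrine cells) and Slitrk5 in ganglion cells (28.6 ± 5 CPM). Slitrk3 overlapped OFF cone bipolar cells (58.8 ± 14.7 CPM) and Slitrk5 ON cone bipolar cells (15.9 ± 8.77 CPM). Slitrk2 was highest in Müller glia at 307 ± 60.5 CPM with starburst cells next at 191 ± 27.7 CPM, and overlapping. Slitrk4 reached 19.4 ± 8.72 CPM in GABAergic amacrine cells, overlapping ganglion cells at 14.8 ± 2.69 CPM, and Slitrk1 16.2 ± 3.22 CPM in OFF cone bipolar cells, where horizontal cells overlapped at 15.1 ± 4.57 CPM. FLRT proteins, ligands of latrophilins and UNC5 receptors, differed in their leading types, with Flrt1 highest in ganglion cells (46.1 ± 8.01 CPM), Flrt2 in Müller glia (327 ± 65.8 CPM) and Flrt3 in GABAergic amacrine cells (47.5 ± 12.2 CPM). Flrt2 overlapped ganglion cells (210 ± 61.6 CPM) and Flrt3 ON cone bipolar cells (22.9 ± 9.5 CPM).

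Neurexophilins are secreted ligands of neurexins, and each was concentrated in 1 type and in part of its cells. Nxph1 ranged from 1850 to 3340 CPM (median 2870) in OFF cone bipolar cells, 11.2 times Müller glia, whose mean of 247 CPM had an SD of 262. Among cells with at least 3000 UMIs, thinned to that number (12545 of 15876 rods and 1146 of 1150 OFF cone bipolar cells), 31.5% of OFF cone bipolar cells had an Nxph1 UMI (37.5% of all cells without thinning) against 4.93% of rods (8.54% without), at median depths of 14590.5 and 4660 UMIs per cell. The 10% of cells with the most Nxph1 UMIs held 55.9% of them. Nxph2 was at 31.5 ± 19.8 CPM in glycinergic amacrine cells and at 0.386 CPM in the next type, and its 8 mice ranged from 8.94 to 64.6 CPM. Only 6.27% of glycinergic cells had an Nxph2 UMI after thinning (11.8% without) against 0.0399% of rods (0.132% without), and the top 10% of cells held 96.9% of its 544 UMIs.

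Teneurins, large transmembrane proteins that bind latrophilins, each had their own leading types. Tenm2 reached 10100, 8310 and 7880 CPM in the starburst cells of the 3 control mice and 8770, 13700 and 13300 CPM in those of the 3 dKO mice. These values overlapped between groups and lay 2.95 times above ON cone bipolar cells (3510 ± 461 CPM) with OFF cone bipolar cells following at 3430 ± 583 CPM. Tenm3 did not separate OFF cone (2960 ± 211 CPM) from rod bipolar cells (2910 ± 408 CPM), nor did Tenm4 separate GABAergic amacrine (2580 ± 197 CPM) from rod bipolar cells (2270 ± 201 CPM), and both orders turned with TMM scaling across types. Tenm1 was highest in horizontal cells and is given with them.

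Among the immunoglobulin recognition molecules, Dscaml1, which limits clumping of like neurites, was the only member led by rods, at 3110 ± 351 CPM, with cones at 2580 ± 236 CPM and glycinergic amacrine cells at 2520 CPM overlapping. Its relative Dscam was at 74.5 CPM in rods and led in GABAergic amacrine cells at 1920 ± 133 CPM, with OFF cone bipolar cells overlapping at 1730 ± 319 CPM. Sdk1, a sidekick that binds itself across cells, was highest in rod bipolar cells (3350 ± 253 CPM, 2.01 times glycinergic amacrine cells), and Sdk2 in horizontal cells. Cdh8, a type II cadherin, ranged from 1420 to 3310 CPM (median 1960) in OFF cone bipolar cells, 2.8 times ON cone bipolar cells. Lrtm1, a leucine-rich repeat membrane protein, was a bipolar gene, at 952 ± 94.6 CPM in rod, 716 ± 28.8 CPM in OFF cone and 658 CPM in ON cone bipolar cells.

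Contactins, adhesion proteins held by a lipid anchor, were divided among the inner retina. Cntn5 ranged over 9 mice from 4830 to 8620 CPM (median 5710) in ON cone bipolar cells, 5.86 times ganglion cells. Cntn4 (4180 ± 430 CPM) and Cntn6 (635 ± 112 CPM) led in rod bipolar cells, Cntn1 in OFF cone bipolar cells (1390 ± 203 CPM), and Cntn2 in ganglion cells (73.9 ± 11.1 CPM, 4.24 times GABAergic amacrine cells). Cntn3 reached 71.3 ± 26.2 CPM in GABAergic amacrine cells, with ganglion cells overlapping at 61.1 ± 21.1 CPM. Among the contactin-associated proteins, Cntnap2 was high in all amacrine classes and in ganglion cells (3480 ± 560 CPM in glycinergic, 3050 ± 645 CPM in GABAergic, 2700 ± 232 CPM in ganglion and 2540 ± 219 CPM in starburst cells, each overlapping the next), Cntnap5a an OFF cone bipolar gene (2070 ± 461 CPM, 5.36 times GABAergic amacrine cells) and Cntnap4 an RPE gene.

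The netrin receptors did not all lead in the same type. Unc5a led in horizontal cells, Unc5c in Müller glia (1490 ± 170 CPM against 974 ± 114 CPM in GABAergic amacrine cells) and Unc5d in ON cone bipolar cells (1770 ± 487 CPM, GABAergic amacrine cells overlapping at 1480 ± 254 CPM). Unc5b was also highest in Müller glia, at 40.1 ± 14.1 CPM, and overlapped cones at 33.8 ± 10.4 CPM.

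Pairs of related types were then set side by side by the count of members whose per-mouse values did not overlap, beside the same share over all genes with at least 5 CPM in 1 of both types. Since the list was chosen with the cell type levels of these data in view, the shares of members describe the list. A share above that of all genes is no evidence about such genes as a class. The genes were also not matched to the members by level. Among photoreceptors, 7 of 32 members (21.9%) separated rods from cones, against 25.1% of all genes. All 7 were higher in cones. Dscam stood at 1170 ± 116 CPM in cones against 74.5 ± 19.5 CPM in rods, Lrtm1 at 293 ± 38.4 against 18.6 ± 4.07 CPM, and Unc5d at 865 ± 150 against 79.4 ± 18.4 CPM. The other 4 were Nrxn3, Tenm4, Cntn1 and Unc5b.

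Bipolar subtypes differed at more members. Rod and ON cone bipolar cells, which share the mGluR6 cascade, were separated by 18 of 38 members (47.4%) against 13% of all genes. Lrrtm4 was 148 times higher in rod bipolar cells, Cntn6 15.3 times and Sdk1 6.48 times. In the other direction, ON cone bipolar cells held Cntn5 at 6060 against 109 CPM, Cdh8 at 697 against 15.9 CPM and Tenm2 at 3510 against 169 CPM. ON and OFF cone bipolar cells were separated by 17 of 39 members (43.6%) against 7.98% of all genes. Cntn5 was 55.4 times and Sdk1 7.76 times higher in ON cells. Nxph1 (2760 against 39.9 CPM), Lrrtm3 (519 against 10.2 CPM), Dscam (1730 against 41.3 CPM), Cntnap5a (2070 against 73.5 CPM), Slitrk6 (141 against 4.06 CPM) and Nlgn1 (2020 against 165 CPM) were higher in OFF cells. The subtype gates used Grm6, Isl1, Prkca and an OFF list (Grik1, Vsx1, Tacr3 and Lhx3).

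**Figure D3:**
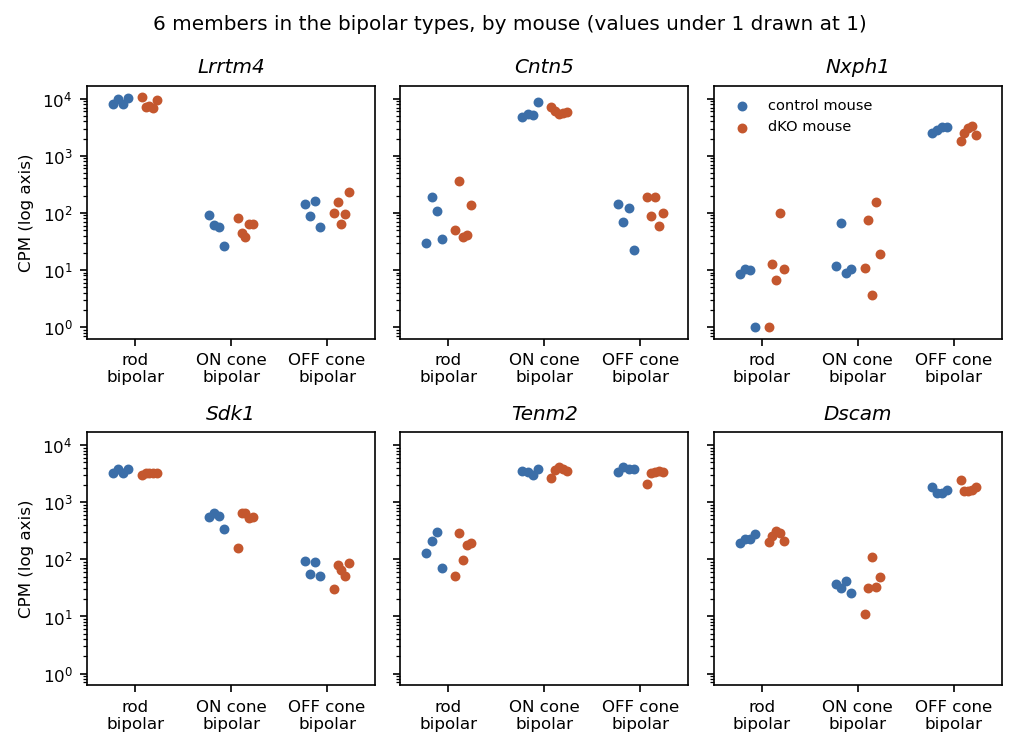
Each point is the CPM of 1 mouse (log vertical axis) for 6 members in rod, ON cone and OFF cone bipolar cells, control in blue and dKO in orange, with values under 1 drawn at 1. Lrrtm4, Cntn5 and Nxph1 are each high in 1 type, Tenm2 in both cone bipolar types, and Dscam is lowest in ON cone bipolar cells.

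Amacrine pairs gave the largest counts, but over fewer mice than the 9 of the bipolar pairs. GABAergic and glycinergic cells were separated by 25 of 45 members (55.6%) against 16.2% of all genes in 8 mice, with 20 higher in GABAergic cells. Tenm3 (1200 against 84.4 CPM), Tenm1 (584 against 44.2 CPM) and Unc5c (981 against 128 CPM) were higher in GABAergic cells, and Dscaml1 (2520 against 244 CPM), Ptprf (888 against 99.4 CPM) and Cntn6 (326 against 49.9 CPM) in glycinergic cells. Starburst cells, the cholinergic amacrine cells of direction selectivity, differed from other GABAergic amacrine cells at 27 of 44 members (61.4%) against 24.6% of all genes in 6 mice. They were higher for 4 members, Tenm2 (5.58 times), Slitrk2 (8.93 times), Flrt2 (2.26 times) and Ptprd (1.67 times), and lower for 23, among them Tenm4 (48.2 against 2600 CPM), Unc5d (62.8 against 1560 CPM) and Lrrtm4 (49.7 against 1050 CPM). Ganglion and GABAergic amacrine cells were separated by 21 of 44 members (47.7%) against 26.1% of all genes. Ganglion cells held more Cntn2, Cntn6, Slitrk5 and Flrt2 and less Nrxn3 (1120 against 6670 CPM). Without S04, S05 and S07 each of these pairs had 6 mice. The share of members was then 82.2% for GABAergic against glycinergic cells (30.9% of all genes) and 61.4% for starburst against GABAergic cells (24.6%). It was 68.2% for ganglion against GABAergic cells (38.4%), 67.6% for rod against ON cone bipolar cells (27.8%) and 64.1% for ON against OFF cone bipolar cells (17.8%).

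Some related types were alike over the members and others were not. With each member's mean log2 level over the 12 types subtracted, the Pearson correlation over the 45 members was 0.592 between GABAergic amacrine and ganglion cells, 0.505 between rods and cones, 0.381 between rod and ON cone bipolar cells and 0.358 between ON and OFF cone bipolar cells. It was 0.0905 between GABAergic and glycinergic amacrine cells and -0.525 between cones and ganglion cells. Starburst cells were closer to Müller glia (0.246) than to GABAergic (0.209) or glycinergic amacrine cells (0.0785). Ganglion cells and the RPE gave 0.25, above the 0.168 of rod and OFF cone bipolar cells. These are descriptions over genes that share libraries and depth.

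Horizontal cells and the RPE were examined for members that set them apart. In horizontal cells, the lateral interneurons of the outer retina, Tenm1 was measured at 1010, 1250 and 1100 CPM in control and 1140, 1100, 1180 and 1090 CPM in dKO mice. Sdk2 was at 1170, 1240 and 1070 CPM in control and 1220, 1270, 1160 and 1160 CPM in dKO mice. The groups overlapped for both, and the means were 29.8 and 9.32 times the median of the 10 types other than horizontal cells and the RPE. Against the next type the ratios were 1.95 and 2.29, since GABAergic amacrine cells held 575 ± 101 CPM and ganglion cells 266 ± 41.6 CPM of Tenm1, and rod bipolar cells 516 ± 92.5 CPM and Müller glia 459 ± 82.4 CPM of Sdk2. Unc5a followed at 146 ± 24.9 CPM (5.3 times that median), with glycinergic amacrine cells overlapping at 104 ± 42.6 CPM. Cntnap5a stood at 310 ± 98.4 CPM (6.71 times) and Ptprf at 127 ± 10.6 CPM (3.94 times), although other types were higher for both. After thinning to 3000 UMIs, a Tenm1 UMI was found in 95.7% of horizontal cells (99.5% without thinning) and in 3.06% of rods (5.39% without).

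In the RPE, Cntnap4 stood at 668, 551 and 769 CPM in control and 606, 789 and 635 CPM in dKO mice, with the groups overlapping. The mean of 670 ± 93.1 CPM was 6.56 times that of ganglion cells and 26.2 times the median of those 10 types. Rods were at 4.77 CPM, Müller glia at 19.7 CPM and microglia at 0 CPM. A Cntnap4 UMI was found in 77.8% of RPE cells after thinning (243 of 302 cells had the depth for it, and 88.1% of all had a UMI without thinning) and in 0.869% of rods (1.72% without), at median depths of 16156.5 and 4660 UMIs per cell. Flrt2 (206 ± 47.7 CPM, 13.9 times that median) and Ptprf (136 ± 11.6 CPM, 4.21 times) were also above it, and so was Slitrk4, but at only 0.747 CPM. Lrrtm2 at 8.41 ± 3.99 CPM (0.808 times) and Unc5c at 74.2 ± 32.8 CPM (0.696 times) came next and lay below it. Members that led in a bipolar type were lower in the RPE than in rods, as Nrxn3 at 415 ± 298 CPM against 796 CPM, except Lrrtm2 (8.41 against 1.57 CPM) and Sdk1 (94.5 against 55.7 CPM). The RPE cells of S02 held 92.3 CPM of amacrine markers against 12.6 to 32.7 CPM in the other 5 mice.

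The genes themselves are long. Over GENCODE M39 on GRCm39, the median span of the 45 members was 291 kb, against 21.6 kb for the 19743 protein-coding genes of the matrix, and 26 members (57.8%) exceeded 100 kb against 12.8% of those genes. Lrrtm4 covers chr6:79995860-80787124, Cntn5 chr9:9658790-10904780, Nxph1 chr6:8948431-9249616, Tenm1 chrX:41616743-42518044 and Cntnap4 chr8:113296608-113610662. The SLITRK genes are short by contrast, from 5.36 kb for Slitrk1 to 12.6 kb for Slitrk4.

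The deletion removed miR-204 and miR-211, small RNAs that repress transcripts bearing a match to their seed. Their mature 5p strands (RefSeq, GRCm38.p6) are shown because both have 1 seed, in capitals (bases 2 to 8), and so seek the same sites.
miR-204-5p: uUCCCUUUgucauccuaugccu
miR-211-5p: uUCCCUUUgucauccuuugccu
The 7-base match AAAGGGA was searched on the sense strand of the annotated 3′-UTR of 1 canonical transcript per gene, and a match followed by A was counted as an 8mer. Of 44 members with an annotated 3′-UTR (Tenm2 had none), 9 (20.5%) held an 8mer, against 7.09% of 19335 genes. Member 3′-UTRs had a median of 2702 bases against 1177, and per kilobase the members held 0.128 matches of 7 or 8 bases against 0.122 over all genes. The 9 were Cntn1, Cntnap2, Flrt1, Lrtm1, Nrxn3, Ptprd, Tenm4, Unc5c and Unc5d. The sites of the 6 members among them that had an unadjusted p under 0.05 between dKO and control in rods, horizontal or starburst cells are shown with the match in capitals (GRCm39, sense strand).
Cntnap2, chr6:47277334-47277356, plus strand: acagaataAAAGGGAAtcctgag
Lrtm1, chr14:28753844-28753866, plus strand: agcatggaAAAGGGAAgaaactt
Nrxn3, chr12:90300171-90300193, plus strand: gaaggaaaAAAGGGAAagggggt
Tenm4, chr7:96556776-96556798, plus strand: acgttcccAAAGGGAAgtcgagg
Unc5c, chr3:141538105-141538127, plus strand: aatgattgAAAGGGAAacactca
Unc5d, chr8:29137760-29137782, minus strand: tgatatttAAAGGGAAtaagcca
A match is a description of these letters and was not tested as a site. These 6 were picked by p in types other than the RPE, where the Cre acts. In the RPE, 0 of the 8 tested members with an 8mer had an unadjusted p under 0.05. Tenm4 and Unc5d were higher in dKO in horizontal cells and lower in starburst cells. A link of these sites to the deletion was not tested.

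The comparison of dKO with control mice asked whether these genes differed in any cell type after the 2 microRNAs were deleted in the RPE. No member passed the test with S06 and S07 as 2 mice. With the quasi-likelihood test of edgeR, adjusted by Benjamini-Hochberg over all genes of a type, 0 of the 432 combinations of member and type that passed the filter on low counts had an adjusted p under 0.05, and 0% of all genes did in any of the 12 types. With S06 and S07 summed as 1 animal, which their shared animal number allows, 4 members and 21 genes passed in horizontal cells. The 4 members were Unc5d (log2 fold change 2.13, adjusted edgeR p 6.24e-06), Tenm2 (2.05, adjusted p 9.47e-05), Dscam (1.91, adjusted p 0.00618) and Tenm3. In the other 11 types 0 members passed. The summed fit kept the horizontal cells rich in Gad1 and Gad2 that are described below, and was not run without them. In S07, 1 such cell held 120 of 151 Unc5d, 54 of 61 Dscam and 218 of 230 Tenm2 UMIs. For Tenm3, up to 96.2% of a mouse's UMIs in horizontal cells came from 1 cell. DESeq2 called 1 member (Unc5d in horizontal cells) and 19 genes over all types, and limma-voom 0 members and 1 gene. At an unadjusted p under 0.05 there were 46 combinations (10.6%), against 2.89% of all genes over all types. Since the list was chosen with dKO differences of these same mice in view, these shares of members describe the list and are no evidence of a change. All 45 members were tested in at least 1 type.

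Unadjusted p under 0.05 was unevenly spread over types. In rods there were 7 of 39 members, all higher in dKO, against 3.3% of all genes. In horizontal cells there were 10 of 32, 9 of them higher, against 4.27%, and in starburst cells 9 of 30, 7 of them lower, against 4.45%. The RPE, where the Cre acts, had 4 of 29 (3 higher) against 4.54%. Müller glia had 4 of 35 against 2.22%, rod bipolar cells 3 of 30 against 2.26%, ON cone bipolar cells 2 of 39 against 2.56%, OFF cone bipolar cells 2 of 38 against 2.55% and cones 2 of 32 against 2.15%. GABAergic amacrine cells had 1 of 44 against 1.93%, glycinergic cells 1 of 41 against 2.68% and ganglion cells 1 of 43 against 3.16%. Over all genes with p under 0.05, 315 of 444 were higher in dKO in rods, 218 of 360 in horizontal cells, 101 of 284 in starburst cells and 253 of 441 in the RPE. The median log2 fold change of the members was 0.227 in horizontal cells, 0.193 in rods and -0.197 in starburst cells, and lay between -0.048 and 0.103 in the other 9 types, while the median of all genes lay between -0.012 and 0.005.

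**Figure D4:**
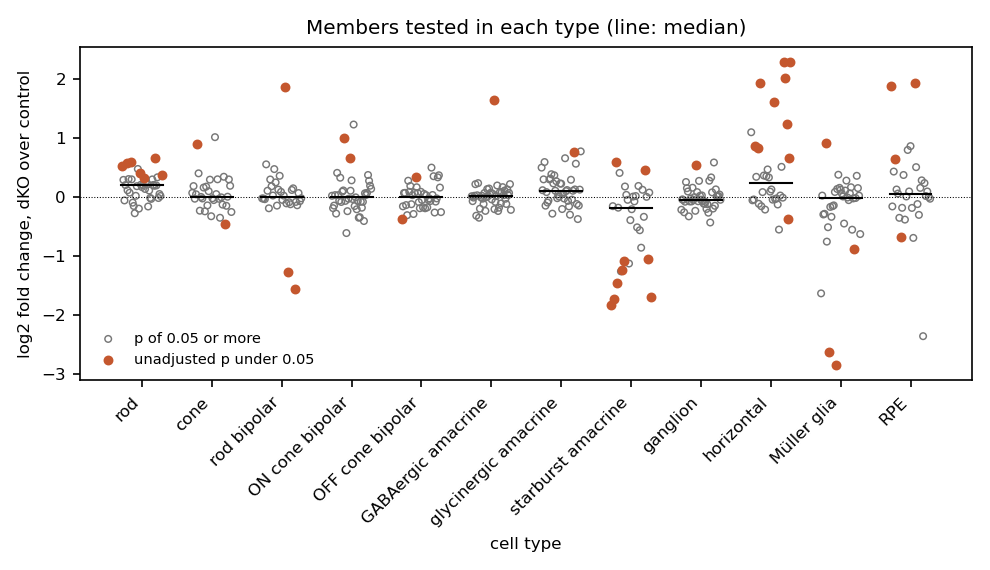
Each circle is the log2 fold change (dKO over control, vertical axis) of 1 member tested in 1 cell type (horizontal axis), filled where the unadjusted p was under 0.05, with a line at the median. Filled circles gather above 0 in horizontal cells (9 of 10) and rods (7 of 7) and below 0 in starburst cells (7 of 9), and 0 circles have an adjusted p under 0.05.

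A single cell often held most of a mouse's UMIs in these combinations. Over the 46, the largest share of 1 mouse's UMIs that came from 1 cell (mice with at least 10 UMIs of the gene) ran from 17.7% to 100% with a median of 59.9%, and passed 50% in 26. It passed 50% in 8 of the 10 in horizontal cells and 8 of the 9 in starburst cells, but in 0 of the 7 in rods.

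Unc5d in horizontal cells had the lowest p. It stood at 35, 33.2 and 28.1 CPM in control and at 80.9, 334, 139 and 130 CPM in dKO mice (S06 to S09), and the groups did not overlap. The log2 fold change was 2.28 (SE 0.35), with an adjusted p of 0.0784 by edgeR and an exact two-sided permutation p of 0.0571, the smallest that 3 against 4 mice can give. Dscam followed the same mice, at 24.6, 23.4 and 16.7 CPM in control and 24.7, 135, 76.1 and 123 CPM in dKO (log2 fold change 1.93, adjusted p 0.382). Tenm2 was at 38.7, 44.9 and 34.3 CPM in control and 39.5, 509, 192 and 112 CPM in dKO (2.28, adjusted p 0.426), and S06 lay within the controls.

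The GABAergic amacrine markers Gad1 and Gad2, which encode the enzymes of GABA synthesis, moved with these values. In the horizontal gate they summed to 1.49, 3.07 and 3.51 CPM in control mice and to 3.95, 48.7, 17 and 40.2 CPM in dKO mice, whereas horizontal markers were between 2600 and 3000 CPM in all 7. A single cell in each of S07, S08 and S09 held 20, 22 and 28 of these marker UMIs, and no other horizontal cell of these 7 mice held more than 2. The gates kept cells that passed both the horizontal and the amacrine gate as horizontal cells. Whether these 3 cells did so was not examined. Those 3 cells contained 120, 167 and 41 Unc5d UMIs and 54, 77 and 75 Dscam UMIs. Without them Dscam was at 18.3, 30.4 and 23.9 CPM in S07 to S09, and the log2 fold change fell to 0.22. Unc5d was then at 81.1, 39.3 and 78.9 CPM in S07 to S09, still above the 3 controls, with a log2 fold change of 1.04 and an adjusted edgeR p of 0.999. Tenm2 was at 31.4, 165 and 50.7 CPM, and in S08 a further cell held 206 of its UMIs. Tenm1 and Sdk2 moved by less than 10% in each of these mice when the 3 cells were left out.

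**Figure D5:**
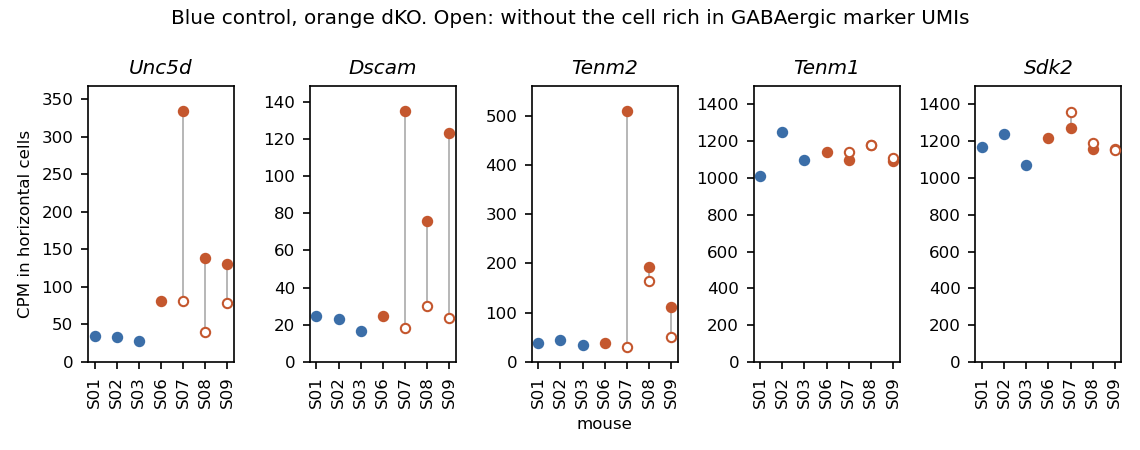
Each panel gives the CPM of 1 member in the horizontal cells of 3 control (blue) and 4 dKO (orange) mice, and open circles give the value without the single cell that held 10 or more Gad1 and Gad2 UMIs in S07, S08 and S09. Dscam returns to 18.3 to 30.4 CPM and Unc5d to 39.3 to 81.1 CPM, while Tenm1 stays at 1110 to 1180 CPM and Sdk2 at 1150 to 1360 CPM.

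Starburst cells showed the mirror case. Cntn4 was at 239, 134 and 261 CPM in control mice and at 126, 29.3 and 28.5 CPM in dKO mice (log2 fold change -1.73, SE 0.44, adjusted p 0.8). A single cell held 92.2%, 83.6% and 96.7% of these UMIs in the controls and 85.4% in S06, and without the top cell of each mouse the values were 21.5, 24.4 and 9.64 against 19.7, 24.6 and 24.2 CPM. Glycinergic markers in the gate were at 29.8, 37.3 and 2.87 CPM in control and 15.4, 0 and 1.9 CPM in dKO mice, and their part in the result was not tested. In rod bipolar cells Tenm1 was at 18.9, 29.1, 23.1 and 17.7 CPM in control and 7.22, 7.83, 16.9, 8.95 and 4.72 CPM in dKO mice (-1.56, SE 0.31, adjusted p 0.46, exact two-sided permutation p 0.0159). Single cells with 25, 33 and 31 UMIs held at least 50% of the total in S01 to S03, S04 and S05 had 2 and 1 UMIs in all, and without the top cell of each mouse the groups overlapped.

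In the RPE, Cdh8 was low and higher in dKO, at 6.71, 7.1 and 5.05 CPM in control and 28.3, 20.2 and 16.4 CPM in dKO mice. The log2 fold change was 1.87 (SE 0.31, adjusted p 0.377), and the exact two-sided permutation p of 0.1 is the smallest for 3 against 3 mice. One cell gave 48 of the 72 UMIs in S06 and one 15 of 29 in S08, while S09 had 9 UMIs in all. Without the top cell of each mouse the values were 5.95, 5.54 and 4.21 against 9.67, 9.95 and 27.2 CPM, and the groups still did not overlap. In S09 that cell held 53.2% of all UMIs of its RPE cells and 2 of the 9 Cdh8 UMIs, so the level of S09 there rests on few UMIs and largely on 1 cell. OFF cone bipolar markers, the class in which Cdh8 is highest, were at 67.1, 320 and 363 CPM in control and 194, 282 and 147 CPM in dKO RPE cells, where the groups overlapped, and their part in the result was not tested. Nxph1 (log2 fold change 1.92), Cntn5 (0.64) and Dscam (-0.68) were the other 3 with p under 0.05 in the RPE, each with an adjusted p of 1. Cntnap4 had a log2 fold change of 0.06 (SE 0.18), Flrt2 of 0.37 (SE 0.19) and Ptprf of -0.12 (SE 0.15). The 8 members with an 8mer that were tested in the RPE had a median log2 fold change of 0.04 (4 above 0, 0 with p under 0.05) against 0.06 for the 21 without.

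In rods no single cell held more than 33.7% of a mouse's UMIs in the 7 combinations. Tenm2 was at 149, 148, 157 and 103 CPM in control and 197, 343, 181, 214 and 185 CPM in dKO mice (log2 fold change 0.65, SE 0.17, adjusted p 1, exact two-sided permutation p 0.0159), and the groups did not overlap with or without the top cell. Cntnap5a was at 28.7, 36.7, 24.8 and 22.9 CPM in control and 41.4, 53, 39.3, 49.8 and 34.1 CPM in dKO mice (0.59, SE 0.15, adjusted p 1), with S02 above S09. Cntn5, Lrtm1, Unc5d, Cdh8 and Nrxn3 made up the 7. All of these stood in rods at under 5% of their highest type. OFF cone bipolar markers in the rod gate were at 125, 113, 119 and 107 CPM in control and 135, 234, 163, 154 and 118 CPM in dKO mice, so they moved with these values in part, and their share in the result was not tested. With the 5% of rods richest in UMIs left out, 0 of 38 members had p under 0.05 and their median log2 fold change was 0.030.

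Of a wider list of 65 further adhesion and guidance genes, 0 passed the adjusted threshold in any type by edgeR. At an unadjusted p under 0.05 there were 9 higher and 0 lower of 56 tested in rods, against 3.3% of all genes in either direction. In horizontal cells 6 were higher and 2 lower of 44, against 4.27%. In the RPE there were 2 higher and 1 lower of 44, against 4.54%. These values come from the main fit, which keeps the 3 horizontal cells rich in Gad1 and Gad2 and the 5% of rods richest in UMIs. The lowest p values all came from horizontal cells, for Il1rapl1 (log2 fold change 1.58, adjusted p 0.401), Slit2 (1.28, adjusted p 0.47) and Ntng1 (1.68, adjusted p 0.717).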

How the data were processed

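The authors dissociated retinas with papain, barcoded single cells by split-pool (Evercode) and mapped reads to GRCm39 with split-pipe. Cells with few genes and genes in few cells were removed. Their notes name R 4.2.2 and Seurat 4.3.0, and their tests between genotypes used MAST within clusters. What the authors deposited are unnormalized UMI counts.

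Cells were gated on marker UMIs per 10000. The 1689 cells that passed at least 2 class gates and 433 with rod marker UMIs were left out, 1526 passed no gate and 296 lay within 1.25 times of a limit. Cells that passed both the horizontal and the amacrine gate were an exception. They were counted as horizontal cells and kept, also under the stricter gate. No doublet caller was run, and free RNA was not removed. UMIs were summed per mouse and type (at least 10 cells) and tested with edgeR 4.0.16 (R 4.3.3), TMM, filterByExpr and the quasi-likelihood test, each type separately, adjusted over its genes. The SE came from the F statistic. Single values were compared by exact permutation tests, two-sided. The tests were checked on simulated counts. DESeq2 1.42.0 and limma-voom 3.58.1 were alternatives.

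The members and lists were chosen with earlier results of these data known, and the gate limits after seeing the data. All 45 members are named. The rule for detail took up to 3 members per type by the ratio to the next type, 5 each for RPE and horizontal cells, and the 8 lowest p values between dKO and control.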

Additional observations from a re-analysis of the deposited data

Results flagged for a closer look

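For the members named in their leading types and in the dKO comparison, 48 groups were searched for 1 mouse far from the others, and 11 were found, where chance gives about 1 in 20. Of the 11, 9 concern S04 or S05, the mice with few inner retinal cells and low UMIs per cell. In S04, Cntn5 in ON cone bipolar cells was at 8620 CPM (others 4830 to 5310), Flrt3 in GABAergic amacrine cells at 72.1 CPM (39.8 to 42), Slitrk4 there at 30.4 CPM (15.4 to 15.9), Nlgn1 in Müller glia at 3970 CPM (5740 to 5910) and Tenm2 in rods at 103 CPM (148 to 157). In S05, Unc5d in ON cone bipolar cells was at 2930 CPM (1390 to 1810), Cntnap5a in OFF cone bipolar cells at 3210 CPM (1780 to 1990), Slitrk4 in GABAergic amacrine cells at 37.9 CPM (11.2 to 18.1) and Cntnap2 in glycinergic amacrine cells at 2220 CPM (3590 to 3870). Slitrk3 in rod bipolar cells was at 70.9 CPM in S07 (150 to 173 in the other dKO mice), and Tenm2 in rods at 343 CPM in S06 (181 to 214).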

How the results depend on the processing

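No paired analysis was possible because nothing in the labels ties a control mouse to a dKO mouse. The highest type held for 42 to 45 of 45 members under every alternative run. TMM scaling across types moved the summed level to 6490 CPM in rods, 56400, 48100 and 55600 CPM in rod, ON cone and OFF cone bipolar cells, 24300 CPM in ganglion cells, 13400 CPM in horizontal cells, 18400 CPM in Müller glia and 3740 CPM in the RPE. A stricter gate gave 9280 CPM in cones and 18500 CPM in Müller glia, and rods without the 5% of cells richest in UMIs 4960 CPM. Members not overlapping between rods and cones numbered 15 (45.5%, against 39.7% of all genes) without S04, S05 and S07, and in control mice alone 41 between GABAergic and glycinergic amacrine cells (91.1% against 48.1%) and 37 between ganglion and GABAergic amacrine cells (84.1% against 55.5%), where fewer mice make gaps more frequent for all genes. With no filter on low counts the members past the threshold in dKO numbered 2 in cones, 2 in rod bipolar, 2 in ON cone bipolar, 1 in GABAergic amacrine, 2 in glycinergic amacrine, 6 in starburst, 7 in horizontal, 1 in Müller glia and 4 in RPE cells, with up to 111 genes called in a type. In horizontal cells the count was 1 with DESeq2, 1 with Xist as a covariate, 1 without S04, S05 and S07, 1 with at least 20 cells, 4 with S06 and S07 summed and 0 to 4 with 1 mouse left out (4 without S06, 1 without S07). It was 0 to 1 in starburst cells with 1 mouse left out (1 without S06) and 2 in the RPE without the 5% of cells richest in UMIs, and 0 without the 3 horizontal cells, an alternative chosen after seeing the data. Alternatives that kept the filter called up to 30 genes in a type. The share of all genes called was not set beside each of these counts. As the list was chosen with dKO differences of these mice in view, the counts describe the list and are no evidence of a change. Unc5d in horizontal cells passed under 8 of 18 alternatives (adjusted p from 2.35e-28 to 0.999). With the top cell of each mouse left out, also chosen after seeing the data, the log2 ratio of mean CPM turned from -1.78 to 0.30 for Cntn4 in starburst cells and was 1.19, 0.27 and 0.45 for Unc5d, Dscam and Tenm2 in horizontal cells. The cause of these shifts was not tested. Starburst, horizontal and RPE cells were few, and single cells weigh in their sums.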
